A study of Homo sapiens with 12 samples.

Results

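The 34 genes described here act in mitosis and at the passage from G2 into M phase, the step at which a cell with replicated DNA commits to dividing. They were taken from a list of symbols, and all 34 were found among the 47634 Ensembl gene IDs that each library lists. The cells were HepG2, a human hepatoma line that keeps many liver functions. The study asked how cells without ATP7B, the copper-exporting ATPase mutated in Wilson disease, respond to copper. There were 4 groups of 3 libraries: ATP7B KO cells given copper for 24 h, ATP7B KO cells left untreated, wild type cells given copper for 24 h, and wild type cells left untreated. A single KO line is named, and the sources used here give neither the copper dose nor the way ATP7B was edited.

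Each library counts reads near the 3′ end of transcripts. Levels below are CPM, the count of a gene divided by the total count of its library and multiplied by 1000000. A gene is said to have risen or fallen where edgeR's quasi-likelihood F test gave an adjusted p under 0.05 over 11051 tested genes, and all 34 genes were tested. Fold changes are log2 values ± SE.

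Mitotic genes are transcribed in waves. Their promoters are held down by the DREAM complex in resting cells and are switched on in G2 by the MuvB core with B-MYB and FOXM1, and many of them carry a CHR element (cell cycle genes homology region), to which MuvB binds, and CCAAT boxes, which NF-Y binds. CDK1 with cyclin A or cyclin B then drives entry into mitosis, the spindle checkpoint holds chromosomes until kinetochores are attached, and the anaphase promoting complex with CDC20 ends the phase. In liver most hepatocytes rest outside the cycle, and these genes are used there as marks of regeneration or of tumour growth.

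RefSeq promoters on GRCh38.p14 were on hand for 29 of the 34 genes, and not for AURKA, BIRC5, TTK, TPX2 and UBE2C. Over the 250 bases before and the 50 bases after the start, and read on both strands, the CHR sequence TTTGAA was found in 20 of the 29, a share of 69.0%, against 15.4% of 27305 promoters in the whole table. CCAAT was found in 21 of the 29, or 72.4%, against 35.7% of all promoters. Both stood in 16 of the 29, or 55.2%, against 6.08% of all promoters. A match of letters is a description and does not show that a factor binds there. Only these exact letters were sought, so a gene without a match is not shown to lack the element in another form.

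The 150 bases before the start of 7 of these genes are printed 5′ to 3′ on the gene's own strand, with TTTGAA and CCAAT in capitals in either orientation (TTCAAA and ATTGG on the other strand). PLK1 (chr16:23678739-23678888, plus strand), KIF4A (chrX:70289954-70290103, plus strand) and MKI67 (chr10:128126424-128126573, minus strand) fell with copper in both lines. KIF20A (chr5:138178962-138179111, plus strand) fell in both lines as well and has a pair of CCAAT boxes and no TTTGAA in this stretch. CDC20 (chr1:43358831-43358980, plus strand) and HMMR (chr5:163460482-163460631, plus strand) carry both and were not called for copper in either line with all 12 libraries. For CDC20 this depended in both lines on the libraries that stood apart, described below, and for HMMR in KO cells alone. CENPE (chr4:103198344-103198493, minus strand) has neither TTTGAA nor CCAAT in this stretch. It is the gene with a called difference in copper response between the lines. That call was made in 3 of the 12 fits that left out a library, and a link to the promoter letters was not tested. In MKI67 and HMMR some of the capitals are overlapping matches.
PLK1: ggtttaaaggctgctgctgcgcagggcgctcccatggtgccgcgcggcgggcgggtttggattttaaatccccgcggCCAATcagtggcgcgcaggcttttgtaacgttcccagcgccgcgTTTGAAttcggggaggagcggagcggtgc
KIF4A: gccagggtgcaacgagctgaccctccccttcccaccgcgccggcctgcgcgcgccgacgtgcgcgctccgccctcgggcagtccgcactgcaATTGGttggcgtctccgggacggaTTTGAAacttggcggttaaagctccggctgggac
MKI67: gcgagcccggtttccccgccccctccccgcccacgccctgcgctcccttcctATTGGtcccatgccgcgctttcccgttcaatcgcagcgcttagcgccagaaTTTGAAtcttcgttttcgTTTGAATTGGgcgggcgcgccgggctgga
KIF20A: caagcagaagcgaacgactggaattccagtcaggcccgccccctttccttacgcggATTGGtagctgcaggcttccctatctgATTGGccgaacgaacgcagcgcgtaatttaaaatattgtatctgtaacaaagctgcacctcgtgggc
CDC20: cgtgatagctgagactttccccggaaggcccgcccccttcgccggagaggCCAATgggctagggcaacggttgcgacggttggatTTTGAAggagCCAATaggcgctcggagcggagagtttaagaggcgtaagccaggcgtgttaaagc
HMMR: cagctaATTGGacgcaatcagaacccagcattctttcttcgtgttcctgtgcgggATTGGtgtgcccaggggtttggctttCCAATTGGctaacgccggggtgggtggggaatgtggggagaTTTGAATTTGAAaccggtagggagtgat
CENPE: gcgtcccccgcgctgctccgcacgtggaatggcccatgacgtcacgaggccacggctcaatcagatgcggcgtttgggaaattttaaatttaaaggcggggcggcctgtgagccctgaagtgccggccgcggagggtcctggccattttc

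The genes can also be grouped by these letter matches. Of the 20 genes with TTTGAA, 7 fell and 1 rose with copper in KO cells, against 4 that fell of the 9 without it, and in wild type cells 9 fell, against 5 of the 9 without it. Of the 21 genes with CCAAT, 8 fell and 1 rose in KO cells, against 3 that fell of the 8 without it, and in wild type cells 12 fell, against 2 of the 8 without it. Over all genes tested, 18.5% fell and 15.2% rose in KO cells, and 6.68% fell and 8.23% rose in wild type cells. No test was made of these shares. Without 3 libraries that stood apart, described below, more of the genes with TTTGAA and with CCAAT fell in both lines. More of the genes without TTTGAA fell as well, and so did a larger share of all genes. That fit holds a single untreated KO library, so its counts by element are not given.

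**Figure D1:**
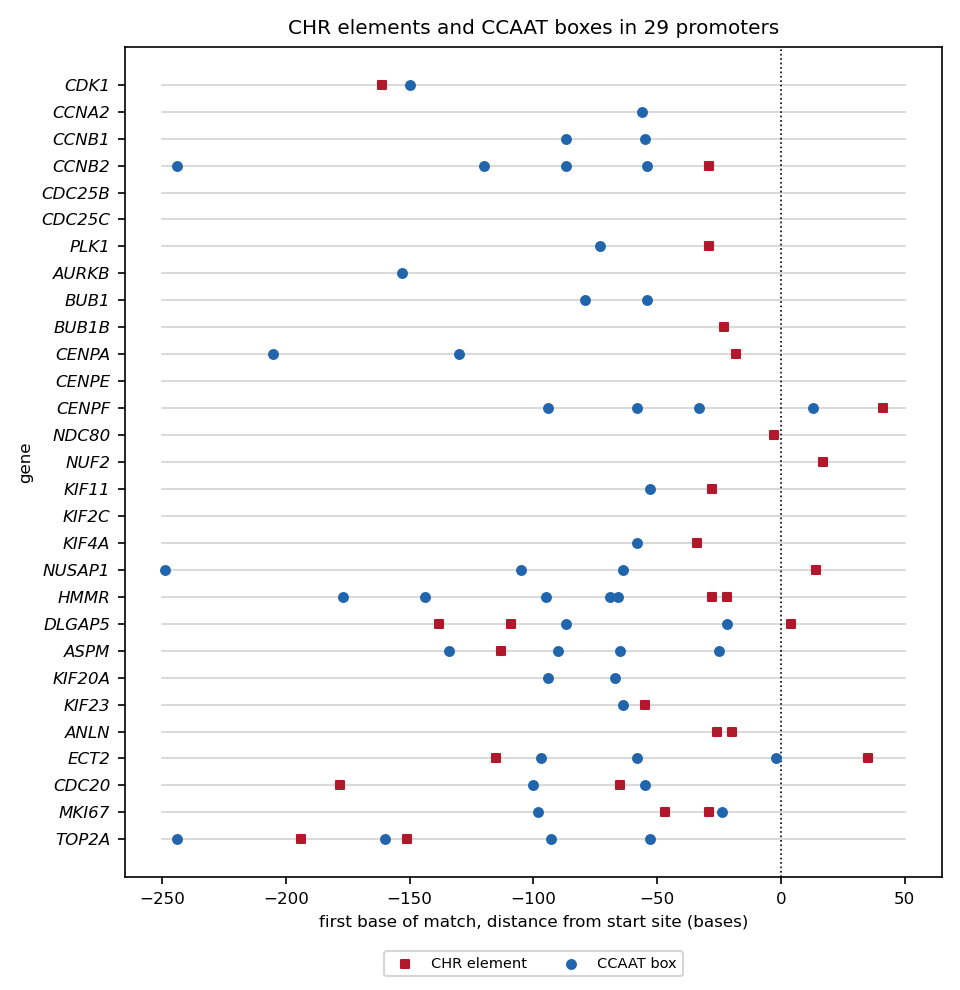
Positions of the CHR sequence and of CCAAT boxes in the RefSeq promoters of 29 of the 34 genes, 1 row per gene, with bases from the start site on the x axis and a marker for each match. CHR matches were present in 20 rows and CCAAT matches in 21.

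Total counts per library ran from 2388597 to 2807634 in KO copper, from 976658 to 3277087 in KO untreated, from 1873703 to 2581954 in wild type copper and from 3561723 to 3829151 in wild type untreated. All 34 genes had reads in all 12 libraries, and a level under the 3-count floor was met at 2 values, CENPA in KO untreated replicate 1 and KIF20A in KO copper replicate 2. Copper reached its known targets: MT1X, a metallothionein, was at 141, 145 and 143 CPM in KO copper against 5.54, 1.02 and 4.27 CPM in KO untreated. In the wild type line MT1X was at 274, 287 and 271 CPM with copper against 5.01, 3.13 and 3.65 CPM in wild type untreated. The 3 KO copper libraries held 3.92, 4.19 and 6.77 CPM of ATP7B, the KO untreated ones 9.01, 2.05 and 11.6 CPM, the wild type copper ones 5.34, 3.92 and 3.87 CPM and the wild type untreated ones 12.7, 13.1 and 12.4 CPM. It was counted in both lines, and because the edited part of the gene is not known to lie near the 3′ end, these reads do not check the KO label. All 8 hepatocyte and hepatoma markers (ALB, AFP, APOA1, APOB, TTR, SERPINA1, TF and GPC3) were counted in every library. Their summed level moved with the groups, at 3602 to 3837 CPM in KO copper, 8457 to 10041 CPM in KO untreated, 9488 to 10240 CPM in wild type copper and 19800 to 20505 CPM in wild type untreated, and its part in the results below was not tested. The markers did not move alike between the untreated lines. GPC3 was at 37.4, 31.7 and 28.1 CPM in KO against 1792, 1738 and 1887 CPM in wild type. ALB, AFP, APOA1, TTR and TF were also lower in every KO library, APOB was higher, and SERPINA1 overlapped. The share of counts from mitochondrial genes moved with the groups too, at 8.34% to 9.46% in KO copper, 5.82% to 8.85% in KO untreated, 6.58% to 8.59% in wild type copper and 2.97% to 3.81% in wild type untreated, and its part was not tested either. Of the 3 leukocyte markers, CD3E and PTPRC were at 0 in 12 and 11 libraries and CD68, a lysosomal protein, was counted in all 12 (6.71 to 22.9 CPM). The endothelial markers CDH5 and VWF were at 0 in 8 and 6 libraries, and VWF reached 10.2 CPM in a KO untreated library. Of the 4 fibroblast markers, COL1A1 and COL1A2 were counted in all 12 libraries, COL1A1 at up to 37.8 CPM, and COL3A1 and DCN were at 0 in 1 and 7. The fibroblast markers summed to 8.37 to 51.4 CPM in KO copper, 2.77 to 35.8 CPM in KO untreated, 4.65 to 31.0 CPM in wild type copper and 10.3 to 16.7 CPM in wild type untreated.

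The libraries of a group were not equally alike. KO untreated replicates 1 and 2 and wild type copper replicate 1 stood apart on the first principal component of all tested genes, which held 44.2% of the variance. They were at 111.4, 120.4 and 23.9, and the other 9 libraries were all below 0. Counts of calls are also given without these 3 libraries. That leaves KO untreated replicate 3 as the only untreated KO library and assumes that it varies like the other groups.

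Summed over the 34 genes, the level was 3055, 3065 and 3048 CPM in KO copper and 4491, 3912 and 7767 CPM in KO untreated. In wild type cells it was 2937, 2571 and 2695 CPM in copper and 6729, 6171 and 6502 CPM untreated. The mean with copper was 3056 ± 8.52 CPM in KO and 2734 ± 186 CPM in wild type (SD, n = 3 each), and all copper libraries were below all untreated libraries of the same line. The spread depended on the scaling: on TMM-scaled totals the KO copper libraries were at 3176, 3112 and 2994 CPM (SD 92.2) and the wild type copper ones at 3117, 2597 and 2804 CPM, so that these groups overlapped. The untreated libraries differed in spread, 5390 ± 2079 CPM in KO against 6467 ± 280 CPM in wild type (SD, n = 3 each). In whole-culture RNA, fewer dividing cells and less mitotic RNA per dividing cell cannot be told apart.

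TOP2A, the topoisomerase that untangles replicated chromosomes, made up 32.2% to 59.4% of that sum, depending on the library. Without it the other 33 genes summed to 1741, 1804 and 1788 CPM in KO copper against 2784, 2654 and 3409 CPM in KO untreated, and to 1360, 1410 and 1461 CPM in wild type copper against 2734, 2671 and 2808 CPM in wild type untreated. The order was thus kept: each copper library was below each untreated library of its line. Without TOP2A, on unscaled totals, the KO copper libraries were all above the wild type copper libraries, whereas the untreated groups overlapped. No p is given for these sums, because the genes were chosen with earlier results known.

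**Figure D2:**
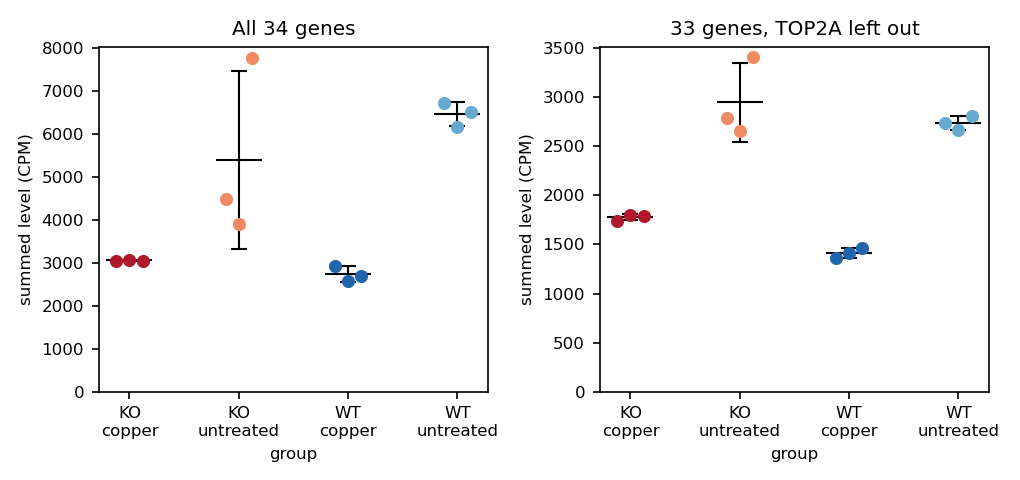
Summed level in CPM (y axis) of the 34 genes (left panel) and of the 33 genes without TOP2A (right panel) in each of the 12 libraries, by group. Points are libraries, and horizontal lines with bars are group means with SD (n = 3); with all 34 genes the KO copper libraries ran from 3048 to 3065 CPM and the KO untreated ones from 3912 to 7767 CPM.

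In wild type cells, copper lowered 15 of the 34 genes and raised none. The background over all genes tested was 6.68% called lower, 8.23% higher and 14.9% in either direction, so 15 of 34 lower is above it. All 3 copper libraries also had a higher mitochondrial share and a lower hepatocyte marker sum than all 3 untreated ones, as given above. The median fold change of the 34 was -1.18, against -0.03 over all genes tested. All 3 copper libraries were below all 3 untreated libraries for 26 of the genes, above them for none, and overlapped for 8. The background for this pattern was 27.1% of all genes tested. The 19 genes that were not called had fold changes from -1.82 to 0.08. Without the 3 libraries that stood apart, 25 genes fell and none rose, and the 15 were among them, while 4784 of all genes tested were called, 19.6% lower and 20.4% higher, against 1648 with all libraries. Then 28 genes were all below and 1 all above, against 33.9% and 27.6% of all genes tested.

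Of the 6 entry genes, 2 fell. CDK1, the kinase that starts mitosis, was at 21.9, 32.2 and 28.3 CPM in copper against 114, 128 and 102 CPM untreated, with no overlap (fold change -2.04 ± 0.32, adjusted p = 0.00181). CCNA2, cyclin A, was at 13.9, 20.0 and 27.1 CPM in copper against 78.3, 87.2 and 87.9 CPM untreated (-2.02 ± 0.35, adjusted p = 0.00295). CCNB1, the cyclin B that partners CDK1, was split: copper replicate 1 was at 109 CPM and replicates 2 and 3 were at 60.6 and 60.4 CPM, against 126, 116 and 126 CPM untreated (-0.65 ± 0.25, adjusted p = 0.1). CCNB2 (-1.33 ± 0.54) and CDC25C, a phosphatase that activates CDK1 (-1.41 ± 0.59), were not called, and CDC25B, its sister phosphatase, had 0.08 ± 0.25.

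Among the 4 mitotic kinases and passenger proteins, PLK1 and AURKB fell. PLK1, a kinase of centrosome maturation and mitotic exit, was at 28.3, 30.9 and 44.5 CPM in copper against 125, 129.8 and 123 CPM untreated (-1.83 ± 0.26, adjusted p = 0.000833). AURKB, the kinase of the chromosomal passenger complex, was at 31.0, 57.5 and 52.7 CPM in copper against 173, 175 and 162 CPM untreated (-1.83 ± 0.57, adjusted p = 0.0475). BIRC5, survivin, its partner in that complex, was at 29.9, 60.6 and 75.1 CPM in copper against 103, 113 and 116 CPM untreated and was not called (-0.98 ± 0.40, adjusted p = 0.12). AURKA, the centrosomal kinase, was at 87.0, 160.3 and 185 CPM in copper against 249, 247 and 256 CPM untreated (-0.78 ± 0.46, adjusted p = 0.286). In all of these, copper replicate 1, which stood apart, was the lowest copper library, and BIRC5 and AURKA fell without the 3 libraries that stood apart.

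Kinetochore and centromere genes fell in 3 of 5 cases. CENPF, a large protein of the outer kinetochore, was at 34.7, 37.0 and 48.8 CPM in copper against 180.3, 143 and 185 CPM untreated, and had the smallest adjusted p of the 34 (-2.05 ± 0.23, adjusted p = 0.000221). CENPE, a kinesin that carries chromosomes to the spindle equator, was at 20.3, 25.7 and 22.1 CPM in copper against 51.7, 52.5 and 55.3 CPM untreated (-1.20 ± 0.23, adjusted p = 0.00535). CENPA, the histone of centromeres, was low throughout, at 2.13, 2.61 and 5.81 CPM in copper against 11.3, 16.5 and 14.0 CPM untreated (-1.91 ± 0.53, adjusted p = 0.0319). NDC80 and NUF2, which together form the microtubule-binding end of the kinetochore, had changes of -0.50 ± 0.25 and -1.15 ± 0.42 and were not called. The spindle checkpoint kinases made up a group with no call: none of BUB1, BUB1B and TTK was called, and their summed level was 89.7 to 99.8 CPM in copper against 107 to 115 CPM untreated.

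Of the 8 spindle motors and microtubule proteins, KIF4A, KIF2C, DLGAP5 and TPX2 fell. KIF4A, a chromosome-arm kinesin, was at 32.6, 33.1 and 31.8 CPM in copper against 77.0, 68.4 and 92.7 CPM untreated (-1.26 ± 0.17, adjusted p = 0.00075). DLGAP5, a microtubule stabiliser also called HURP, was at 20.8, 19.6 and 18.2 CPM in copper against 49.3, 60.1 and 63.2 CPM untreated (-1.53 ± 0.22, adjusted p = 0.000871). KIF2C, a microtubule-depolymerising kinesin, had -1.24 ± 0.20 (adjusted p = 0.002), and TPX2, the activator of AURKA on the spindle, had -0.81 ± 0.21 (adjusted p = 0.0245). The other 4, KIF11, NUSAP1, HMMR and ASPM, were not called, at -0.67 to -0.11. HMMR, a spindle-binding hyaluronan receptor, was not called and its groups overlapped, at 45.4, 50.1 and 55.4 CPM in copper against 55.1, 58.5 and 52.2 CPM untreated.

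Among the 4 cytokinesis genes the motors fell and the cortex proteins were not called. KIF20A, a kinesin of the midzone of the dividing cell, was at 2.67, 2.18 and 2.71 CPM in copper against 15.8, 17.2 and 14.6 CPM untreated, the lowest fold change of the set (-2.61 ± 0.41, adjusted p = 0.00179). KIF23, the kinesin of the centralspindlin complex, was at 1.60, 2.61 and 5.42 CPM in copper against 8.70, 13.8 and 19.1 CPM untreated (-2.02 ± 0.46, adjusted p = 0.0126). ANLN, a scaffold of the contractile ring, had -0.22 ± 0.33 and ECT2, the exchange factor that activates RhoA, had -0.04 ± 0.28. CDC20 and UBE2C, the activator and the ubiquitin-conjugating enzyme of the anaphase promoting complex, were at -1.06 ± 0.64 and -1.82 ± 0.66 and were not called, although their copper libraries were below all untreated ones. Both proliferation marks fell: TOP2A was at 1577, 1161 and 1234 CPM in copper against 3995, 3500.3 and 3695 CPM untreated (-1.46 ± 0.36, adjusted p = 0.0183), and MKI67, the Ki-67 protein, was at 43.8, 39.7 and 35.6 CPM in copper against 103, 91.4 and 109 CPM untreated (-1.32 ± 0.21, adjusted p = 0.00201).

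The calls of AURKB, CENPA, KIF23, TOP2A and TPX2 in wild type cells ended when single libraries were left out. Their adjusted p then reached 0.156, 0.124, 0.0626, 0.0819 and 0.101, mostly on leaving out an untreated wild type library or replicate 2 or 3 of the copper-treated ones. The other 10 calls held in all 12 such fits. For 8 of the 34 genes another annotated gene lies over part of the last 1000 genomic bases of the gene in GENCODE v29 (CCNA2, CCNB2, PLK1, BUB1B, KIF2C, NUSAP1, HMMR and KIF20A). Whole genes were compared, introns included, and the annotation used for the counting is not known. For CCNB2, BUB1B and NUSAP1 the other gene lies on the same strand, so a strand setting would not part their reads. Whether exons overlap was not looked at, and their levels are taken as uncertain. For the other 5 it lies on the opposite strand, and their levels are uncertain because no strand setting for the counting was found in the labels or notes.

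In KO cells, copper lowered 12 of the 34 genes and raised 1. Over all genes tested, 18.5% were called lower, 15.2% higher and 33.7% in either direction, and 12 of 34 lower is above that share while 1 of 34 higher is below it. The median fold change of the 34 was -0.49, against 0.01 over all genes. Its sign rested on KO untreated replicate 3: without that library the median was 0.09, and without the 3 libraries that stood apart it was -0.73. The copper libraries were all below the untreated ones for 13 genes and all above for 2 (TTK and ECT2), and overlapped for 19. Over all genes tested, 25.1% were below and 19.1% above in this way. With the 3 libraries that stood apart left out, 28 of the genes were below and 3 above, against 5525 and 3273 of the 11051 genes tested, since a single untreated library then sets the comparison.

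MKI67 was at 48.8, 66.6 and 70.9 CPM in KO copper against 239, 275 and 193 CPM in KO untreated (-1.82 ± 0.21, adjusted p = 0.000124). CENPF was at 70.5, 116 and 104 CPM in copper against 332, 349 and 309 CPM untreated (-1.66 ± 0.22, adjusted p = 0.000295). TPX2 was at 187, 183 and 186 CPM in copper against 608, 501 and 453 CPM untreated (-1.38 ± 0.22, adjusted p = 0.000714). These 3 had the smallest adjusted p of the set in KO cells, and in each of them untreated replicates 1 and 2 lay above replicate 3.

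KIF20A fell in KO cells too, to 3.21, 0.837 and 3.19 CPM in copper against 8.31, 13.3 and 19.2 CPM untreated (-2.37 ± 0.42, adjusted p = 0.00154). PLK1 was at 69.1, 48.6 and 46.2 CPM in copper against 97.7, 130.0 and 171 CPM untreated (-1.15 ± 0.25, adjusted p = 0.00466). With KIF4A (-0.75 ± 0.17), DLGAP5 (-0.86 ± 0.22) and KIF2C (-0.66 ± 0.20), these make 8 genes that fell with copper in both lines: CENPF, DLGAP5, KIF20A, KIF2C, KIF4A, MKI67, PLK1 and TPX2.

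Another 4 were called in KO cells and not in wild type cells. CCNB1 was at 87.6, 100.1 and 93.6 CPM in copper against 238, 205 and 176 CPM untreated (-1.03 ± 0.25, adjusted p = 0.00803). CDC25B was at 113, 114 and 117 CPM in copper against 364, 251 and 222 CPM untreated (-1.18 ± 0.25, adjusted p = 0.00434). KIF11, the plus-end motor that separates spindle poles, had -1.10 ± 0.33, and ANLN had -1.07 ± 0.33. ECT2 was the gene that rose, at 31.0, 35.6 and 36.2 CPM in copper against 23.6, 19.5 and 19.2 CPM untreated (0.84 ± 0.29, adjusted p = 0.0425). That call was made in 4 of the 18 alternative fits, and was lost with relative log expression factors, without a filter on low counts, with DESeq2, in the fit of the KO groups alone and with a replicate block (adjusted p up to 0.101). The reverse group, called in wild type and not in KO cells, was AURKB, CCNA2, CDK1, CENPA, CENPE, KIF23 and TOP2A. The remaining 14 genes were called in neither line: ASPM, AURKA, BIRC5, BUB1, BUB1B, CCNB2, CDC20, CDC25C, HMMR, NDC80, NUF2, NUSAP1, TTK and UBE2C.

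**Figure D3:**
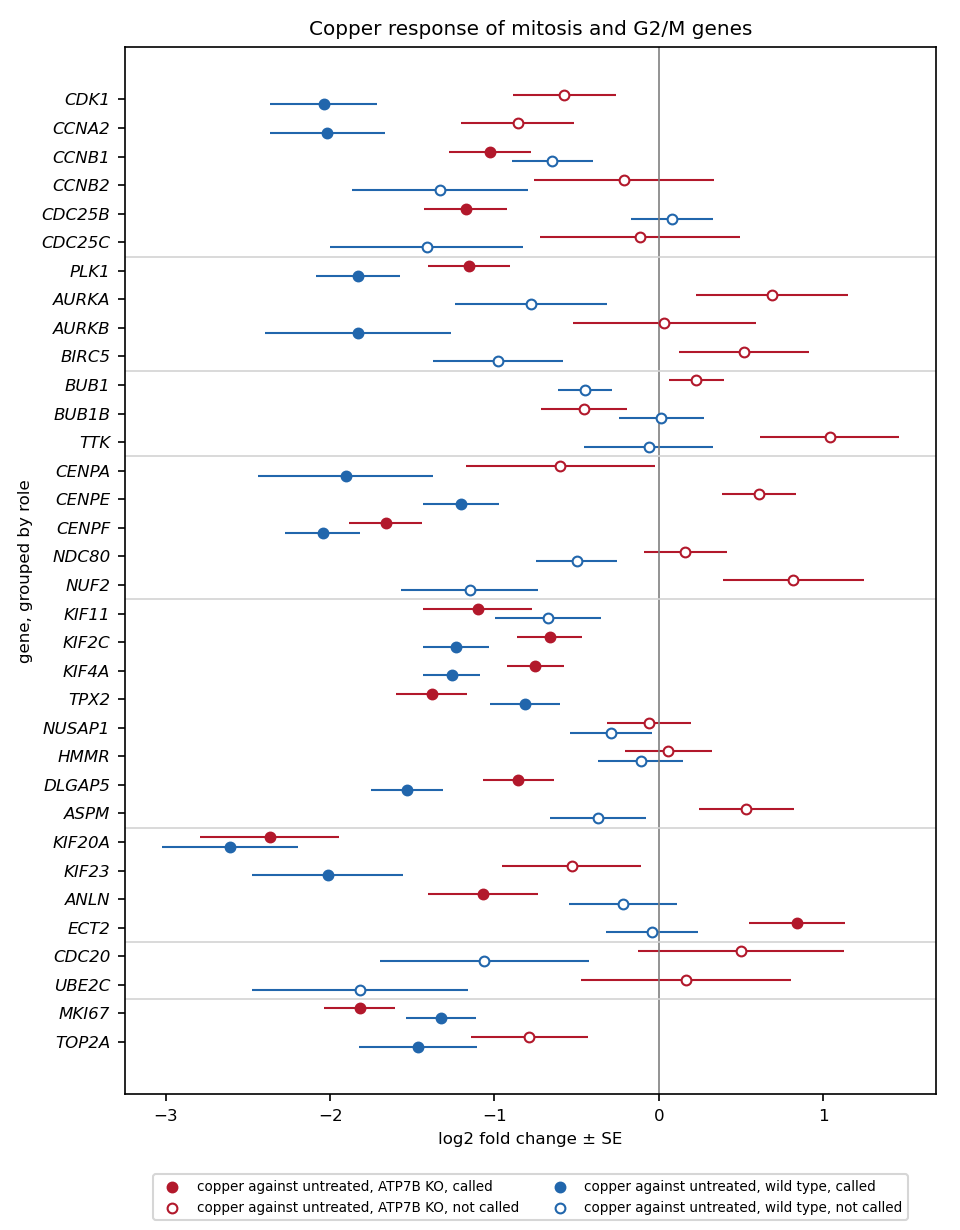
Log2 fold change of copper against untreated (x axis, points with SE bars) for each of the 34 genes (rows, grouped by role), with KO cells in red and wild type cells in blue; filled points passed the test and open points did not. CENPE had 0.61 in KO cells and -1.20 in wild type cells, and ECT2 has the filled point to the right of 0, at 0.84 in KO cells.

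Several of the KO calls rested on few libraries. ECT2, ANLN, KIF11, DLGAP5 and KIF2C each lost the call when single libraries were left out, mostly a KO copper replicate or KO untreated replicate 1 or 2. Their adjusted p then reached 0.101, 0.105, 0.0817, 0.057 and 0.101. In those fits between 8 and 24 of the genes were called. The 24, made of 11 higher and 13 lower, came without KO untreated replicate 3. Calls over all genes rose as well in that fit, to 6635 of 11429 tested, 3415 higher and 3220 lower. The 24 is thus not shown to be particular to these genes. Without the 3 libraries that stood apart, 23 genes fell and ECT2 rose, and 4739 genes were called in all, 20.5% lower and 19.1% higher, against 3721 with all libraries. Of the 13 calls above, 12 were kept and ANLN was lost.

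The KO untreated libraries differed among themselves in these genes. For UBE2C they were at 9.70, 12.3 and 103 CPM, for CDC20 at 4.16, 4.10 and 51.9 CPM, and for AURKB at 24.2, 17.4 and 150.1 CPM. Replicates 1 and 2 were far below replicate 3 in all of these, whereas for MKI67, TPX2, CCNB1, CDC25B and CENPF they were at or above it. On log2(CPM + 1), the mean of replicates 1 and 2 minus replicate 3 had a median of -0.81 over the 34 genes, against -0.23 over all genes tested. It was below -1 for 15 of the 34 genes (44.1%, against 26.8% of all genes tested) and above 1 for none of them (against 13.1%).

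Wild type copper replicate 1 was set against replicates 2 and 3 in the same way. Across the 34 genes its deviation and that of KO untreated replicates 1 and 2 were correlated, with Pearson r 0.675 and Spearman rho 0.726, and over all genes tested with 0.651 and 0.634. The deviation went with transcript length: Spearman rho with the length of the longest protein-coding transcript was 0.621 for KO untreated and 0.42 for wild type copper over the 34 genes, and 0.195 and 0.084 over all genes tested. The 15 genes that were lower by more than 1 had a median transcript of 2248 bases, and the 9 genes that were higher a median of 3725 bases. Genes are not independent replicates, these values share libraries and depth, and they are given as a description. The 3 libraries that stood apart were also the 3 with the lowest total counts. KO untreated replicates 2 and 1 had 976658 and 1443372, and wild type copper replicate 1 had 1873703. The next lowest was wild type copper replicate 2, with 2295050. The part of depth was not tested.

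**Figure D4:**
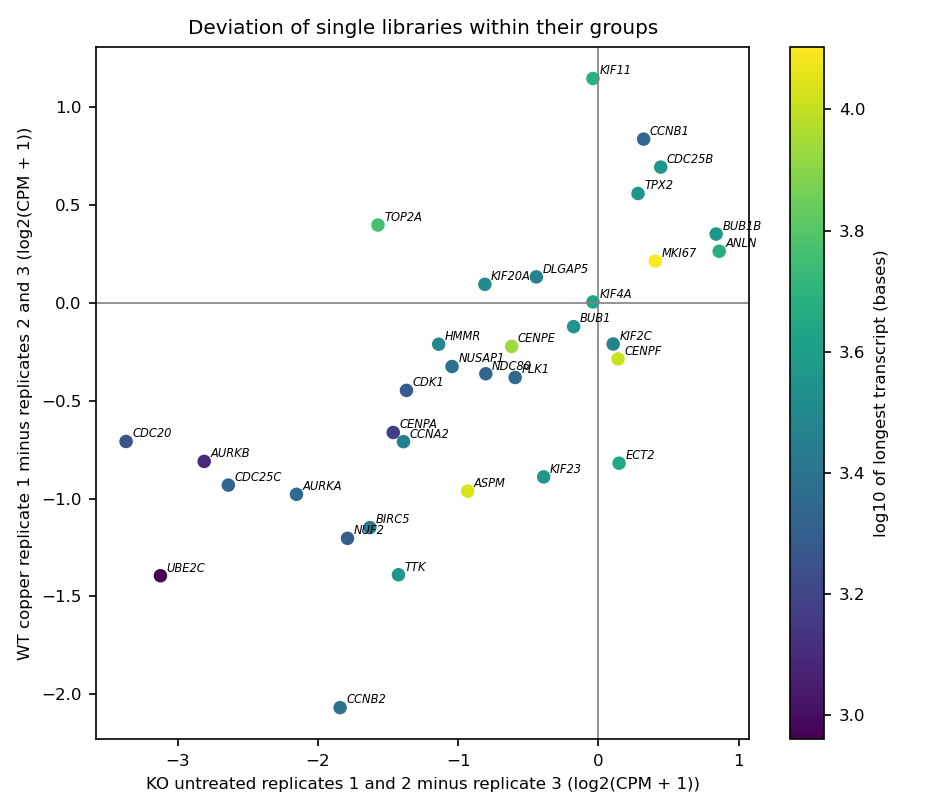
Deviation of the libraries that stood apart from the rest of their group, on log2(CPM + 1), for each of the 34 genes: KO untreated replicates 1 and 2 minus replicate 3 on the x axis and wild type copper replicate 1 minus replicates 2 and 3 on the y axis, with colour for log10 of the longest protein-coding transcript in bases. Of the 34 genes, 20 were negative in both and 6 positive in both.

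Between the lines without copper, 2 of the 34 genes were higher in KO cells and 3 lower. Of all genes tested, 17.9% were called higher, 14.0% lower and 31.9% in either direction, so the 5 of 34 called is below the background share. MKI67 was at 239, 275 and 193 CPM in KO untreated against 103, 91.4 and 109 CPM in wild type untreated (1.10 ± 0.21, adjusted p = 0.00311). CENPF was at 332, 349 and 309 CPM in KO against 180.3, 143 and 185 CPM in wild type (0.84 ± 0.22, adjusted p = 0.0131). Both were higher in every KO library.

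The 3 lower genes were NUF2, BUB1 and CDK1. NUF2 was at 11.8, 9.22 and 38.4 CPM in KO untreated against 58.5, 55.6 and 56.7 CPM in wild type untreated (-1.56 ± 0.43, adjusted p = 0.0166). BUB1, a checkpoint kinase at kinetochores, was at 34.6, 34.8 and 39.4 CPM in KO against 52.5, 50.7 and 52.8 CPM in wild type (-0.64 ± 0.17, adjusted p = 0.0133). CDK1 was at 39.5, 48.1 and 114 CPM in KO against 114, 128 and 102 CPM in wild type (-0.90 ± 0.31, adjusted p = 0.0443), and KO replicate 3 lay within the wild type range. Leaving out single libraries took the adjusted p of CDK1 up to 0.141, of CENPF to 0.0688, of NUF2 to 0.0586 and of BUB1 to 0.0531, while MKI67 held in all 12 fits. Without KO untreated replicate 3, 25 of the genes were called, 7 higher and 18 lower, and 6738 genes in all, against 3521 with all libraries. In the fit of the untreated groups alone, 2 of the genes were called, MKI67 and CENPF, and all 3 lower calls were lost. BUB1 was lost without a filter on low counts as well, and CDK1 was called in 6 of 18 alternative fits (adjusted p up to 0.283). Without the 3 libraries that stood apart 9 of the genes were called, 5 higher and 4 lower, and MKI67, CENPF, NUF2 and BUB1 were among them. In that fit 4132 genes, or 34.6% of those tested, were called in all, so that 9 of 34 (26.5%) is below the background there too.

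With copper in both lines, 4 of the 34 genes were higher in KO cells and none lower. The shares over all genes tested were 5.77% called higher, 8.03% lower and 13.8% in either direction. CENPE was at 52.0, 75.8 and 57.3 CPM in KO copper against 20.3, 25.7 and 22.1 CPM in wild type copper (1.41 ± 0.23, adjusted p = 0.00233). CENPF was at 70.5, 116 and 104 CPM in KO against 34.7, 37.0 and 48.8 CPM in wild type (1.23 ± 0.23, adjusted p = 0.00443). KIF4A was at 51.3, 53.2 and 58.1 CPM in KO against 32.6, 33.1 and 31.8 CPM in wild type (0.70 ± 0.17, adjusted p = 0.02). In these genes the lines did not overlap.

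ASPM, a protein of spindle poles, was at 54.1, 71.6 and 72.1 CPM in KO copper against 19.2, 42.7 and 34.5 CPM in wild type copper (0.999 ± 0.29, adjusted p = 0.0414). The KO libraries were all above the wild type libraries for 16 of the 34 genes and all below for 1, CDC25B, at 113, 114 and 117 CPM in KO against 239, 147 and 148 CPM in wild type (-0.67 ± 0.25, adjusted p = 0.0934). Over all genes tested, 26.4% were all above and 20.0% all below, and the median of the 34 fold changes was 0.31, against 0.05 over all genes tested. Single wild type copper libraries moved that median, to 0.13 without replicate 1 and 0.52 without replicate 3, and without the 3 libraries that stood apart it was 0.07, near the value over all genes. CENPE and CENPF held in all 12 fits that left out a library, and KIF4A and ASPM did not (adjusted p up to 0.0776 and 0.13). Without the 3 libraries that stood apart, 10 of the genes were called, 9 higher and 1 lower, and 4527 genes in all (37.9%), against 1525 with all libraries. In the 9 remaining libraries KO was all above for 18 genes and all below for 1, against 32.3% and 26.2% of all genes tested.

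The difference of the copper responses, KO minus wild type, was called for 1 of the 34 genes, against 1.26% of all genes tested called higher, 3.67% lower and 4.93% in either direction. It was CENPE, with 1.81 ± 0.32 (adjusted p = 0.0233). In wild type cells CENPE fell with copper, while the KO libraries were at 52.0, 75.8 and 57.3 CPM in copper against 31.2, 43.0 and 56.8 CPM untreated (0.61 ± 0.23, adjusted p = 0.055). The call ended in 9 of the 12 fits that left out a library, with adjusted p up to 0.092, and held without the 3 libraries that stood apart. The difference was positive for 27 of the 34 genes and negative for 7, with a median of 0.68 against 0.02 over all genes tested. On leaving out the 3 libraries that stood apart it was positive for 24 and negative for 10, with a median of 0.21 against -0.02, and 3 of the genes were called (8.82%, against 8.78% of all genes tested). For CDK1 it was 1.46 ± 0.45 (adjusted p = 0.0653), for NUF2 1.97 ± 0.60 (adjusted p = 0.0646) and for CDC25B -1.25 ± 0.35 (adjusted p = 0.0554). So for the other genes a call in a single line is not shown to be a difference between the lines. These comparisons share libraries, and the untreated KO libraries of CDK1, NUF2 and many others parted as described above.

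**Figure D5:**
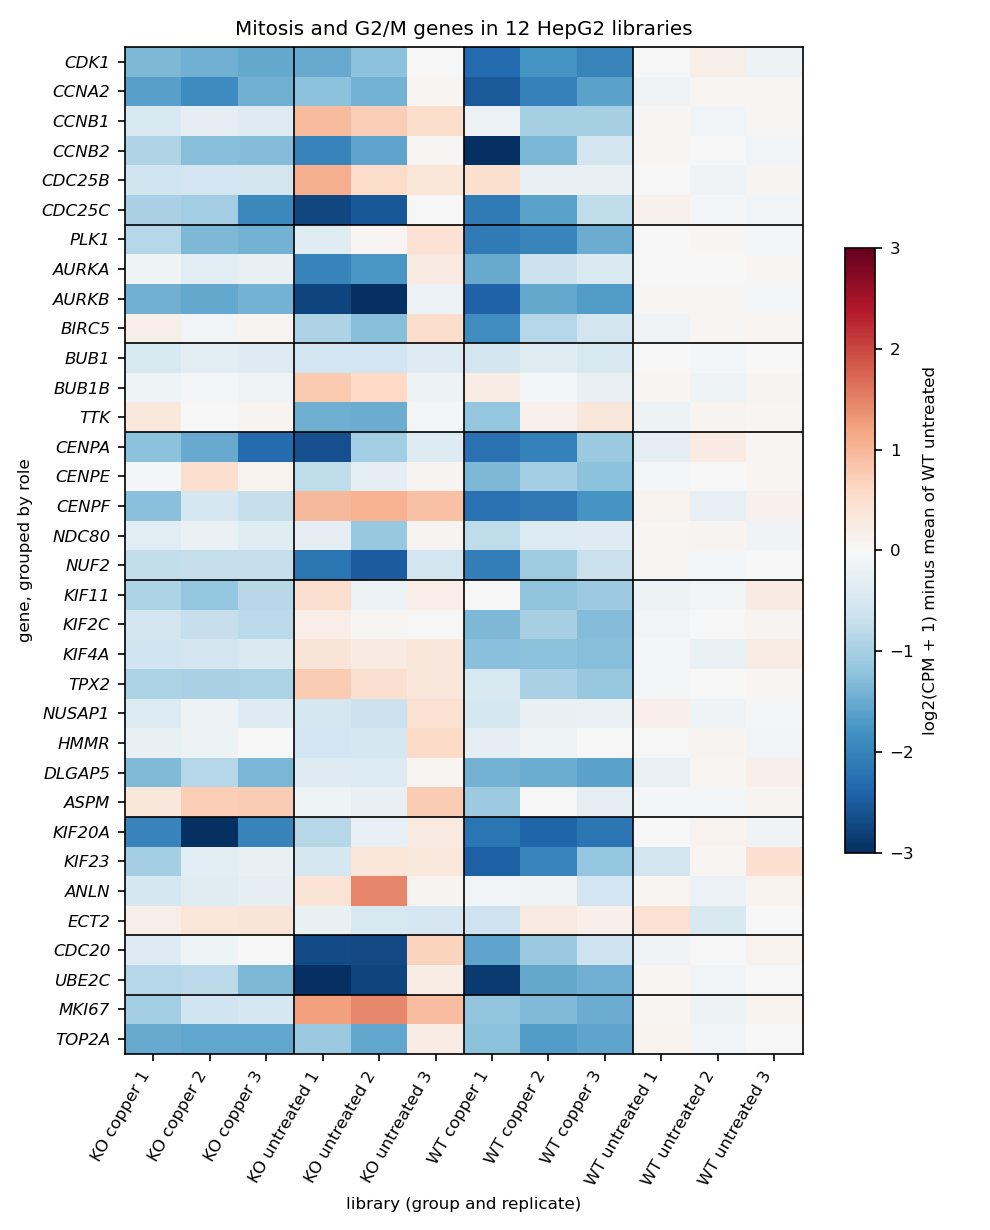
Level of each of the 34 genes (rows, grouped by role) in each of the 12 libraries (columns, by group and replicate), as log2(CPM + 1) minus the gene's mean over the wild type untreated libraries; red is higher, blue is lower and shades saturate at 3 in either direction. Most rows are blue in the copper columns of both lines, and the KO untreated columns 1 and 2 differ from column 3, with 15 of the 34 genes lower by more than 1.

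The genes that control this programme, and those that act beside it, were read from 7 further lists of 152 symbols. Of 21 tested regulators in the FOXM1, MYBL2 and DREAM list, copper raised 4 and lowered 4 in the KO line and raised none and lowered 2 in the wild type line. In KO cells that is 19.05% each way, against 15.2% of all genes tested called higher and 18.5% lower. In wild type cells 9.52% were lower, against 6.68% of all genes tested. FOXM1, the factor that switches on G2 genes, averaged 30.7 ± 4.38 CPM in KO copper against 42.1 ± 4.69 CPM in KO untreated and was not called there (-0.33 ± 0.26, adjusted p = 0.325). The wild type average was 13.1 ± 5.09 CPM in copper against 26.9 ± 2.86 CPM untreated (SD, n = 3 each), and FOXM1 fell in that line (-0.996 ± 0.27, adjusted p = 0.0261). With copper, FOXM1 was higher in KO than in wild type cells (1.18 ± 0.27, adjusted p = 0.013). MYBL2, the B-MYB factor, averaged 247 ± 14.8 CPM in KO copper against 144 ± 62.7 CPM in KO untreated and rose (0.90 ± 0.26, adjusted p = 0.0189), whereas in wild type cells it averaged 134 ± 27.7 CPM in copper against 135 ± 18.7 CPM untreated. NFYB, a subunit of the CCAAT-binding factor NF-Y, fell with copper in wild type cells (-1.22 ± 0.37, adjusted p = 0.0449). How far the calls of FOXM1, MYBL2 and NFYB rest on single libraries is not given here. For MYBL2 the untreated KO libraries were widely spread (SD 62.7 CPM).

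Partners of the 34 genes were read in the same fits. Of 31 kinetochore, passenger and checkpoint partners, copper lowered 2 and raised 3 in the KO line, and lowered 2 and raised 1 in the wild type line. CDCA8, borealin, which sits with AURKB and BIRC5 in the passenger complex, fell in both lines (-0.83 ± 0.19 in KO, adjusted p = 0.0065, and -1.36 ± 0.19 in wild type, adjusted p = 0.000871), while SKA1, which couples kinetochores to microtubules, rose in both (0.85 ± 0.21 in KO, adjusted p = 0.00971, and 1.32 ± 0.22 in wild type, adjusted p = 0.00208). Of 18 other motor, centrosome and cytokinesis genes, 5 fell and 4 rose in KO cells, and 5 fell and none rose in wild type cells, PBK, TACC3, CKAP5 and KIF22 among the wild type 5. Of 15 genes of the anaphase promoting complex and its targets, 2 fell and 2 rose in KO cells, and 1 fell (PTTG1, securin) and 1 rose in wild type cells. Of 17 condensin and cohesin genes, 4 fell and 2 rose in KO cells, and 2 fell and none rose in wild type cells. Over all genes tested, copper lowered 18.5% and raised 15.2% in KO cells, and 6.68% and 8.23% in wild type cells. In KO cells 6.45% of the partners fell and 9.68% rose, and of the motor list 27.8% and 22.2%. For the anaphase promoting complex these shares were 13.3% and 13.3%, and for condensin and cohesin 23.5% and 11.8%. In wild type cells the shares that fell were 6.45%, 27.8%, 6.67% and 11.8%, in the same order.

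Brakes of the cycle formed a further list. Of 17 tested, 6 rose and none fell in the KO line with copper, and in the wild type line 3 rose and 2 fell. GADD45A, a stress protein that inhibits CDK1, averaged 265 ± 15.5 CPM in KO copper against 81.3 ± 28.8 CPM in KO untreated (1.82 ± 0.23, adjusted p = 0.000176) and 265 ± 2.86 CPM in wild type copper against 89.1 ± 4.62 CPM in wild type untreated (1.60 ± 0.22, adjusted p = 0.000801). GADD45B, its relative, averaged 327 ± 49.5 CPM in KO copper against 5.71 ± 3.43 CPM in KO untreated (5.81 ± 0.37, adjusted p = 2.22e-06) and 119 ± 31.8 CPM in wild type copper against 26.5 ± 4.20 CPM in wild type untreated (2.19 ± 0.30, adjusted p = 0.000741), and its copper response differed between the lines (3.62 ± 0.45, adjusted p = 0.00373). SFN, the 14-3-3 sigma protein that holds CDK1 with cyclin B in the cytoplasm, rose in both lines (2.10 ± 0.27 in KO, adjusted p = 0.000194, and 1.74 ± 0.26 in wild type, adjusted p = 0.00112). CDKN1A, the p21 inhibitor, averaged 158 ± 0.634 CPM in KO copper against 119 ± 77.3 CPM in KO untreated, and 114 ± 8.90 CPM in wild type copper against 75.9 ± 9.83 CPM in wild type untreated, and was called in neither line (adjusted p = 0.22 and 0.23). When the 3 libraries that stood apart were left out, CDKN1A was not called in KO cells (-0.20 ± 0.13, adjusted p = 0.241) and rose in wild type cells (0.71 ± 0.12, adjusted p = 6.36e-06).

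Genes of the G1 to S step made up the last list. Of 22 tested, copper raised 4 and lowered 4 in the KO line and raised 2 and lowered 2 in the wild type line, and 8 were higher and none lower in KO than in wild type cells, both with copper and without. CDC6, a loader of the replicative helicase, rose with copper in both lines (0.97 ± 0.19 in KO, adjusted p = 0.0026, and 1.24 ± 0.19 in wild type, adjusted p = 0.00161). CCND1, cyclin D1, was higher in KO cells with copper (1.54 ± 0.23, adjusted p = 0.0012) and without it, where it averaged 412 ± 77.3 CPM in KO untreated against 141 ± 12.4 CPM in wild type untreated (1.42 ± 0.23, adjusted p = 0.00125; SD, n = 3 each). These 8 of 22 are 36.4%, against 5.77% of all genes tested called higher with copper and 17.9% without. For the brakes, the 6 of 17 that rose with copper in KO cells are 35.3%, against 15.2% of all genes tested. In wild type cells 17.65% of the brakes rose and 11.76% fell, against 8.23% and 6.68%. Copper raised and lowered 18.18% each of the G1 to S genes in KO cells, where 18.5% of all genes fell. In wild type cells it raised and lowered 9.09% each.

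The list counts were larger for some lists without the 3 libraries that stood apart, and so was the background. Of 23 G1 to S genes then tested, 14 were higher and none lower in KO than in wild type cells with copper, against 17.3% of all genes called higher, and 16 were higher and none lower without copper, against 16.8%. For copper, median fold changes of that fit are given, first in KO and then in wild type cells. Over all genes tested they were 0.0 and 0.01. The brakes had 0.21 and 0.17, and the FOXM1, MYBL2 and DREAM regulators -0.22 and -0.14. Kinetochore, passenger and checkpoint partners had 0.11 and -0.07, and other motor, centrosome and cytokinesis genes -0.246 and -0.345. Genes of the anaphase promoting complex had -0.09 and 0.06, and condensin and cohesin genes 0.11 and 0.065. The G1 to S genes had -0.27 and 0.09. In KO cells these medians rest on a single untreated library.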

How the data were processed

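The authors deposited 1 table of raw, whole-number counts per library, by Ensembl gene and not normalized. QuantSeq 3′ libraries were made from 100 ng RNA and read single-end for 75 bp, per the labels' protocols. Per the submitters' processing notes, STAR 2.3.0, HTSeq and hg19 were used; those notes, as used here, name no annotation release, strand setting or filter. Without molecular identifiers, amplified copies count as reads.

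Symbols named 45776 of the 47634 IDs, which held 99.51% of the counts. CPM and fold changes were computed here from the deposited counts. The test was edgeR 4.0.16 (R 4.3.3, limma 3.58.1): filterByExpr left 11051 genes, libraries were scaled by TMM, and all 12 entered a robust quasi-likelihood F test with 4 group means (biological coefficient of variation 29.1%). Benjamini-Hochberg adjustment ran over all of these genes, with calls at 0.05. The step was also run on simulated counts, as a check of the code. No library stood apart in that simulation, so it does not cover the spread described above.

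The labels call the samples biological replicates, with no statement that they are separate cultures, so p-values measure the spread between these samples. No replicates agreed within sampling noise. The 34 genes, the related lists and the tests were chosen with earlier results of these data known. All 34 may be named, with at most 4 called genes per related list and comparison, those of smallest adjusted p, besides CDKN1A, CCND1, FOXM1, MYBL2, E2F1, GADD45A, ATP7B, MT1X and HMOX1. Alternatives were other scaling factors, no filter, DESeq2 1.42.0, fits of the 2 groups compared, a replicate block, and leaving out libraries.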

Additional observations from a re-analysis of the deposited data

Results flagged for a closer look

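CENPE is given here because its response to copper differed between the lines by a test of the difference itself. The log2 fold change with copper was 1.81 higher in KO than in wild type cells (± 0.32 SE, edgeR adjusted p = 0.0233). Copper-treated libraries were at 52.0, 75.8 and 57.3 CPM in KO, against 20.3, 25.7 and 22.1 CPM in wild type. Untreated libraries were at 31.2, 43.0 and 56.8 CPM in KO, against 51.7, 52.5 and 55.3 CPM in wild type, and the 2 lowest of the KO ones are the libraries that stood apart over all genes. Their part in the result was not tested, and the call was also made without the 3 libraries that stood apart. It was made in 3 of the 12 fits that left out a library.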

How the results depend on the processing

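Without the 3 libraries that stood apart, 25 of the 34 genes were called for copper in wild type cells, 24 for copper in KO cells, 9 for KO against wild type untreated, 10 for KO against wild type with copper and 3 for the difference of the copper responses. The main counts were 15, 13, 5, 4 and 1. In that fit the sign turned for AURKA (-0.32), AURKB (-1.12), HMMR (-0.53), CDC20 (-0.68) and UBE2C (-1.04) for copper in KO cells. For KO against wild type untreated it turned for CDC20 (0.49). Those named are the turned genes that were called there or with all libraries, and signs of uncalled genes turned as well. For copper in KO cells 27 of the 34 genes were negative in that fit, against 21 with all libraries. For KO against wild type untreated 17 were negative, against 24. The cause was not tested. Without any filter on low counts, 12 genes were called for KO against wild type untreated and 9 for the difference. Fits of the 2 groups compared gave 2 for KO against wild type untreated and 8 for KO against wild type with copper, and DESeq2 gave 4 for the difference. Leaving out 1 library at a time gave 10 to 23, 8 to 24, 3 to 25, 2 to 12 and 0 to 23 calls in the 5 comparisons, each highest count without KO untreated replicate 3, and CDC25C for copper in KO cells ran from -0.54 to 1.64. With TMM scaling the summed level of KO copper was 3094 ± 92.2 CPM (SD, n = 3). Without TOP2A, an alternative chosen after seeing the data, the sums were 1778 CPM in KO copper, 2949 CPM in KO untreated, 1410.4 CPM in wild type copper and 2738 CPM in wild type untreated. Within the 100 bases nearest the start site, TTTGAA stood in 51.7% of the promoters of these genes and 4.59% of all promoters. CCAAT stood there in 62.1% of the promoters of these genes and 15.9% of all promoters, and both in 34.5% and 0.846%.

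Over all genes, the counts called in the 5 comparisons were 1648, 3721, 3521, 1525 and 545. Without the 3 libraries that stood apart they were 4784 for copper in wild type cells, 4739 for copper in KO cells, 4132 for KO against wild type untreated, 4527 for KO against wild type with copper and 1050 for the difference. Fits of the 2 groups compared gave 3044, 1853, 1421 and 2694 for the first 4 comparisons. For the difference, fitting without a filter gave 2366, DESeq2 1746 and the replicate block 113. Leaving out 1 library at a time gave 734 to 3779, 2372 to 6635, 2058 to 6738, 675 to 3561 and 13 to 5882.

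The labels state no pairing of the samples. Correlations of same-numbered deviations ran from -0.221 to 0.61. The highest were between KO untreated and wild type copper, 0.495 for replicate 1 and 0.61 for replicate 3. A shared batch was not tested. With the replicate block 15, 13, 7, 5 and 1 of the 34 genes were called in the 5 comparisons, and for copper in KO cells TTK was called in place of ECT2. The results without the 3 libraries that stood apart for the related lists, the promoter elements and the non-overlapping genes were chosen after seeing the data. Depth limits the rarest of them: in the shallowest library, 3 counts equal 3.07 CPM, near the levels of KIF20A and CENPA.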
